A study of Mus musculus with 2 samples.

Results

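The cells described here were later neuroblasts and young neurons of the Dlx lineage in which Meg3, a long noncoding RNA of an imprinted gene cluster, outweighed Ccnd2, a cyclin of dividing and recently divided precursors. They numbered 272: 131 of 1913 kept cell barcodes in the contralateral library and 141 of 2505 in the ipsilateral library. A barcode was kept with at least 500 detected genes and at most 15% mitochondrial UMIs (unique molecular identifiers, each standing for 1 captured RNA molecule). It was a member if it met 4 further conditions. Dlx1, Dlx2 and Dlx6os1 together reached at least 3 per 10000 UMIs. The precursor genes Pdgfra, Cspg4 and C1ql1 together stayed under 5, and the oligodendrocyte genes Mobp, Mog and Mal under 40, per 10000 UMIs. The cycle genes Mki67 and Top2a together had under 3 UMIs, and Meg3 had more UMIs than Ccnd2. The members were thus chosen by the measured UMIs of Meg3, Ccnd2, the Dlx genes and the listed exclusion genes, and the levels of these genes are a description and not a finding.

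Both libraries came from male C57/BL6 mice whose middle cerebral artery was occluded for 60 min on postnatal day 10, with 2 weeks of reperfusion before the lateral striatum was taken. The ipsilateral library is from the side of the occlusion and the contralateral library from the opposite side, and the striata of 3 animals were pooled in each. The labels call the sorted cells oligodendrocytes: the gate was A2B5, O4 or both, antigens of oligodendrocyte precursors, and the neuroblasts are those that passed it. Each side is 1 library, so no test of the side was possible, and brains without an occlusion were not analysed here.

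As background, neuroblasts of the postnatal subventricular zone arise from Dlx-expressing progenitors beside the striatum and migrate along the rostral migratory stream to the olfactory bulb, where they become granule and periglomerular interneurons. The transcription factors PBX3, FOXP2 and SP8 mark different neuron classes among their descendants, and PROKR2, the receptor for the secreted protein PROK2, is needed for the cells to migrate into the bulb. Medial progenitors marked by NKX2-1 instead give rise to LHX6-expressing interneurons of cortex and striatum.

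Meg3 lies on chromosome 12 at chr12:109541001-109571726, plus strand, in the mm10 annotation, where it is a long intergenic noncoding RNA. The first of its 2 RefSeq promoter windows (GRCm38.p6, chr12:109540746-109541045, plus strand, 5′ to 3′) is shown because Meg3 is the transcript that the rule required to exceed Ccnd2. The other window (chr12:109545148-109545447, plus strand) held neither of the motifs named next and is not printed. Capitals mark TGACGTCA, the full cAMP response element, and the overlapping TATAAA matches. Both motifs were searched on both strands. TGACGTCA was present in 1.79% and TATAAA in 13.6% of the 32851 mouse promoter windows of the same length.
Meg3 promoter: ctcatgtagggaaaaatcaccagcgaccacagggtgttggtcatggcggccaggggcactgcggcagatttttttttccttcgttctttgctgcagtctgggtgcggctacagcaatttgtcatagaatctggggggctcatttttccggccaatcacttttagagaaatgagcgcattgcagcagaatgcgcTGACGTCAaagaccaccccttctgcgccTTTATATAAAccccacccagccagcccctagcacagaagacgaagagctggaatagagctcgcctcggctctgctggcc

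The neuroblast label largely held against its markers. Dcx, the microtubule-associated protein of migrating neuroblasts, had a UMI in 127 contralateral and 137 ipsilateral members. Sox11, a transcription factor of immature neurons, was found in 130 and 141, and Stmn2, a tubulin-binding protein of growing neurites, in 128 and 138. The GABA-synthesis gene Gad2 was found in 121 and 123. Markers of mature bulb interneurons were rare: Calb2 had a UMI in 3 and 4 cells, and Th, the dopamine-synthesis enzyme, in 0 of 131 and 0 of 141 cells, which allows a share with a UMI of up to 2.29% and 2.13% (3 cells of the total, not a Clopper-Pearson bound). Microglial markers gave 6 and 8 UMIs in all. Mature oligodendrocyte markers had a UMI in 130 contralateral and 141 ipsilateral members, with a median of 11 and 14 UMIs per cell.

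A few cells inside the rule went against the label or stood apart. 1 contralateral and 2 ipsilateral cells carried 30 or more UMIs of the astrocyte marker list, against at most 9 and 10 in the other members of each library. Another ipsilateral cell carried 256 UMIs of the endothelial marker list, which was 91.4% of all such UMIs among the ipsilateral members, against at most 2 in any other cell. It also had 19032 UMIs in all, 12 of Dcx and 18 of Pbx3. The astroglial cells had 0 UMIs of Dcx and 2 to 4 of the Dlx genes, and 1 of the ipsilateral ones had 7 UMIs of Six3. Another 4 contralateral and 6 ipsilateral cells had at least 2 UMIs of Lhx6 and Nkx2-1 together. The astroglial cells aside, 2 cells on each side had at least 2 UMIs of Six3. These 18 cells were found after their values were seen, and results that rest on them are given with and without them.

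Members were shallower than the other cells of the lineage. The median depth was 6434 UMIs and 2566 genes per contralateral member, and 7158 UMIs and 2890 genes per ipsilateral member. The Ccnd2-dominant neuroblasts, which meet the same rule with Meg3 at or below Ccnd2, had medians of 10127.5 and 10776.5 UMIs, and cycling cells 23106 and 23636. Summed over members, the libraries held 868804 contralateral and 1072104 ipsilateral UMIs. The median member had 15 contralateral or 21 ipsilateral more UMIs of Meg3 than of Ccnd2. On the members' side, 11 contralateral and 8 ipsilateral cells lay within 3 UMIs of that boundary, as did 22 and 17 Ccnd2-dominant cells on its other side. The lowest Dlx sum inside the rule was 3.71 contralateral and 3.61 ipsilateral per 10000 UMIs, and the highest among cells that failed only this condition was 1.06 and 2.43. No barcode occurred in both libraries.

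Members made up 6.85% of the contralateral kept barcodes (exact Clopper-Pearson 95% interval 5.76% to 8.07%) and 5.63% of the ipsilateral (4.76% to 6.60%). The difference was -1.22 percentage points, with an interval of -2.72 to 0.24 that covers counting error only. Within the lineage, counted as cycling, Ccnd2-dominant and Meg3-dominant cells together, members were 131 of 526 contralateral and 141 of 480 ipsilateral cells. These are 24.9% (21.3% to 28.8%) and 29.4% (25.3% to 33.7%), a difference of 4.47 points (-1.16 to 10.1). The counting intervals of both differences included 0. The Ccnd2-dominant cells were 11.5% and 7.82% and the cycling cells 9.15% and 5.71% of kept barcodes. These differed by -3.68 points (-5.50 to -1.89) and -3.44 points (-5.08 to -1.85), and neither counting interval included 0. Within the lineage their differences were -0.99 points (-7.20 to 5.23) and -3.48 points (-9.33 to 2.41), and both intervals included 0. Shares of kept barcodes also depend on how many oligodendrocyte lineage cells passed the sort on each side, and the part of the sort in these shares was not tested.

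The receptor gene Prokr2 (chr2:132337733-132385447, minus strand) was the transcript most concentrated in these cells among the subtype genes. Members held 73.0% of the contralateral and 86.2% of the ipsilateral Prokr2 UMIs of kept barcodes, while holding 2.44% and 1.97% of all UMIs. Prokr2 had 208 UMIs in 83 contralateral cells and 388 UMIs in 103 ipsilateral cells, with a median of 1 and 2 and a highest value of 8 and 17 UMIs per cell. The summed levels were 239 CPM contralateral (UMIs per 1000000, with an exact Poisson 95% interval of 208 to 274) and 362 CPM ipsilateral (327 to 400). The log2 ratio of these sums, ipsilateral over contralateral after adding 5 CPM to each, was 0.59 (0.35 to 0.83, counting error only). Single cells of both libraries overlapped over nearly the whole range, from 0 to 18.7 contralateral and 18.1 ipsilateral UMIs per 10000. The share of cells with a Prokr2 UMI was 63.4% and 73.0%. After each cell was thinned to 4306 UMIs it was 50.0% and 59.4%, a difference of 9.38 points (-3.68 to 22.1). The summed level was thus higher ipsilateral by more than counting error, while the interval of the difference in shares included 0. The endothelial cell held 4 of the ipsilateral Prokr2 UMIs. The ligand gene Prok2 had 0 UMIs in members of either library.

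Pbx3 (chr2:34171457-34373142, minus strand), a homeodomain partner of MEIS proteins, was also higher in the ipsilateral sum. It had 715 contralateral UMIs in 105 cells and 1152 ipsilateral UMIs in 114 cells, which came to 823 CPM (764 to 886) against 1075 CPM (1013 to 1138). The log2 ratio was 0.38 (0.25 to 0.52). The share of cells with a UMI was 80.2% and 80.9%, and after thinning 73.3% and 75.0%. The difference ran through the distribution: the median cell had 6.87 contralateral and 12.0 ipsilateral Pbx3 UMIs per 10000. The lower quartiles were 1.31 and 2.51, and the upper quartiles 13.9 and 19.5. The distributions overlapped, with highest cells at 36.1 and 47.8.

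Foxp2 (chr6:14901349-15441977, plus strand), a forkhead factor of several striatal and bulb neuron classes, differed less. It had 174 UMIs in 63 contralateral and 255 UMIs in 70 ipsilateral cells, which came to 200 CPM (172 to 232) against 238 CPM (210 to 269). The log2 ratio was 0.24 (-0.03 to 0.52). Its thinned shares were 39.7% and 40.6%.

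Sp8 (chr12:118846329-118852576, plus strand), a zinc finger factor of periglomerular and other interneurons, was the subtype gene with a lower ipsilateral sum. It had 341 UMIs in 89 contralateral and 364 UMIs in 96 ipsilateral cells, or 392 CPM (352 to 436) and 340 CPM (306 to 376). The log2 ratio was -0.21 (-0.42 to 0.01), and the thinned shares were 68.1% and 62.5%. The counting intervals of the Foxp2 and Sp8 ratios included 0. Without the 18 exceptional cells the sums were 255 and 399 CPM for Prokr2, 882 and 1189 CPM for Pbx3, 214 and 266 CPM for Foxp2, and 422 and 381 CPM for Sp8.

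These shares stood above those of oligodendrocyte lineage cells of the same libraries. Among cells meeting the mature oligodendrocyte rule, thinned to the same depth, Prokr2 had a UMI in 0.34% contralateral and 0.10% ipsilateral, Foxp2 in 0.51% and 0.10%, and Sp8 in 0.85% and 0.39%. Pbx3 had a UMI in 7.11% and 8.41% of them. Their median depth before thinning was 28163 and 29117 UMIs. In oligodendrocyte precursors the thinned shares were 0.28% and 0.21% for Prokr2 and 7.10% and 8.83% for Pbx3. For Foxp2 they were 5.40% and 6.37%, and for Sp8 1.42% and 0.41%. Ccnd2-dominant neuroblasts were nearer to the members, with 8.37% and 9.04% for Prokr2 and 35.5% and 28.9% for Pbx3. For Foxp2 they had 15.3% and 10.8%, and for Sp8 55.2% and 53.6%.

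**Figure D1:**
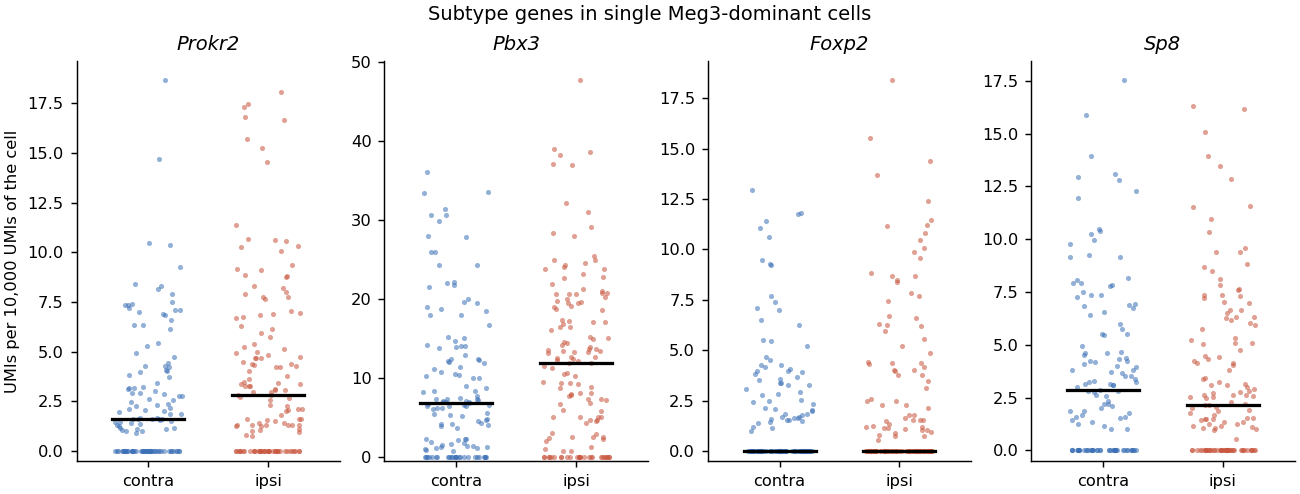
Each point is 1 Meg3-dominant cell, with its UMIs of the named gene per 10000 UMIs on the vertical axis and the library on the horizontal axis. Black bars are medians, which for Pbx3 are 6.87 contralateral and 12.0 ipsilateral, and many cells of each library lie at 0.

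The subtype genes differed in level between cycling, Ccnd2-dominant and Meg3-dominant cells. These stages are groups set by UMI limits in tissue of 1 time point, and their order in time was not tested. Prokr2 was near its floor in cycling cells, at 1.52 CPM contralateral (6 UMIs) and 0.86 CPM ipsilateral (3 UMIs). It reached 21.6 and 18.2 CPM in Ccnd2-dominant cells, and 239 and 362 CPM in members. The log2 ratio of members over Ccnd2-dominant cells was 3.20 contralateral (2.82 to 3.59) and 3.98 ipsilateral (3.60 to 4.38). Pbx3 went from 215 to 823 CPM contralateral and from 154 to 1075 CPM ipsilateral between the same stages, log2 ratios of 1.91 (1.75 to 2.08) and 2.76 (2.59 to 2.93). Foxp2 went from 47.8 to 200 CPM and from 29.1 to 238 CPM, log2 ratios of 1.96 and 2.83. Sp8 was at 262 and 255 CPM in Ccnd2-dominant cells and differed least, with log2 ratios of 0.57 (0.38 to 0.76) and 0.41 (0.22 to 0.60). The side also stood in reverse order between the stages for Prokr2, Pbx3 and Foxp2: the ipsilateral sum was the lower one among Ccnd2-dominant cells and the higher one among members. Only for Pbx3 were both orders beyond counting error. For Prokr2 the Poisson intervals of the Ccnd2-dominant sums, which rest on 50 contralateral and 40 ipsilateral UMIs, overlapped. For Foxp2 the interval of the members' ratio between sides, -0.03 to 0.52, included 0. Whether the step differs between sides was not tested, with 1 library a side.

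Within the members, Meg3 share divided the cells further. They were placed in a lower, middle and upper range by Meg3 UMIs as a percentage of Meg3 plus Ccnd2 UMIs, at 71.4% and 85.3%, with 50, 42 and 39 contralateral and 42, 47 and 52 ipsilateral cells. Arpp21, which encodes a phosphoprotein of striatal neurons, was measured at 44.5, 76.4 and 109 CPM contralateral and 38.6, 105 and 173 CPM ipsilateral from the lower to the upper range. Nr4a1, an activity-regulated nuclear receptor, was measured at 85.9, 160 and 288 CPM and at 113, 157 and 244 CPM. Both genes were therefore highest in the upper range of both libraries. Sp8 ran from 412 to 331 CPM contralateral and from 381 to 267 CPM ipsilateral, and Stmn2 from 2270 to 1657 CPM and from 2030 to 1564 CPM. Pbx3 showed no shared order: it was 857, 848 and 752 CPM contralateral and 943, 1126 and 1173 CPM ipsilateral. Prokr2 was at 210, 262 and 253 CPM contralateral and 247, 492 and 362 CPM ipsilateral. Its Poisson intervals were apart between sides in the middle range (205 to 330 against 420 to 572). They overlapped in the lower and upper ranges. These ranges are cuts of 1 measure, not cell types, and 30 contralateral and 23 ipsilateral members lay within 2 percentage points of a boundary.

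**Figure D2:**
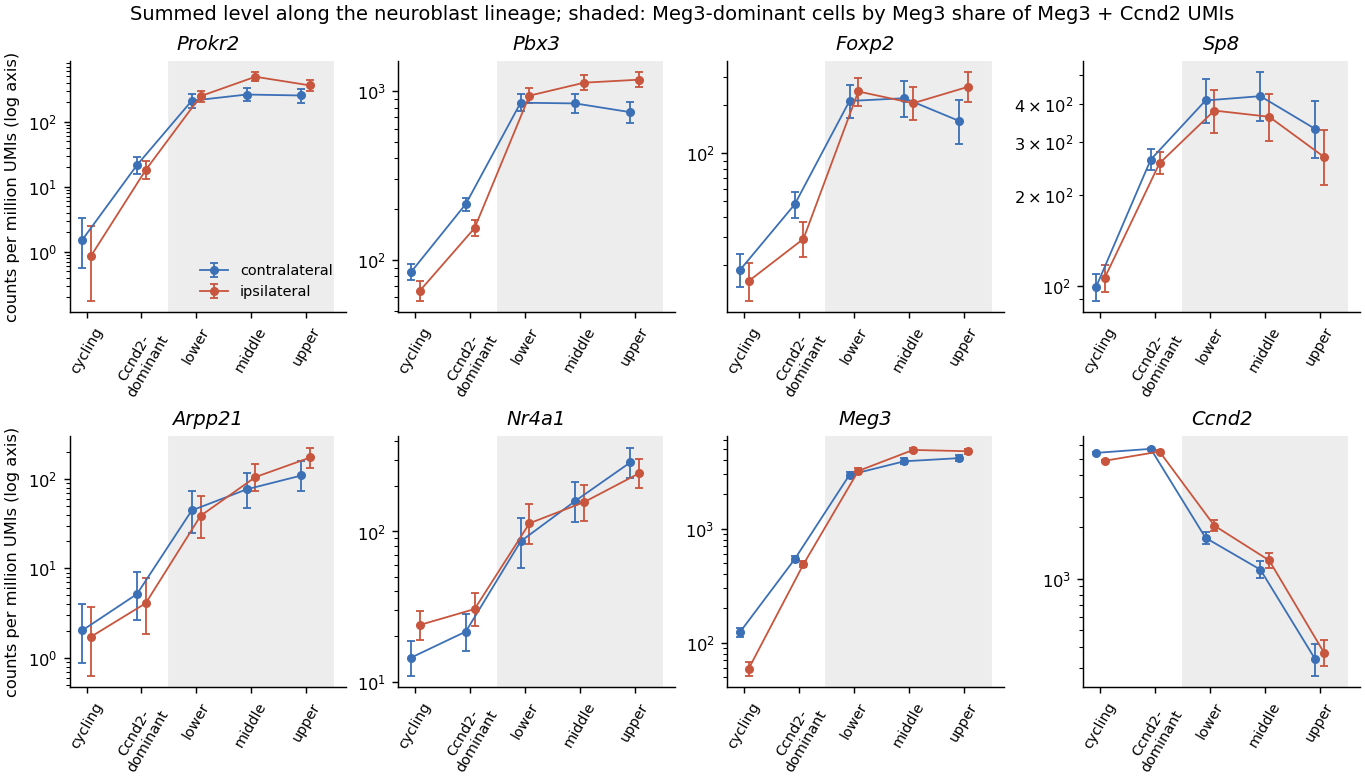
Points are summed CPM on a log axis with exact Poisson 95% intervals, for cycling cells, Ccnd2-dominant cells and the 3 ranges of Meg3 share among members (shaded), in the contralateral and ipsilateral libraries. Arpp21 and Nr4a1 are highest in the upper range of both libraries, while Sp8 is at 262 and 255 CPM in Ccnd2-dominant cells, left of the shaded ranges.

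Compared with Ccnd2-dominant cells, members carried more message for excitability and less for DNA replication. Among the 9042 genes measured in this stage contrast, 157 (1.74%) were at least 2-fold higher and 129 (1.43%) at least 2-fold lower in both libraries. The rule itself divides these cells by Meg3 and Ccnd2, and genes that accompany either are part of that division, so these ratios are a description. Leading the higher genes after Prokr2 were Arpp21 (log2 2.95 contralateral and 3.57 ipsilateral), Syt6, a synaptotagmin (2.35 and 2.82), Nr4a1 (2.71 and 2.29) and Runx1t1, a transcriptional corepressor (2.27 and 2.39). Sfrp2, a secreted modulator of Wnt signalling, followed at 2.26 and 3.34, and the potassium channel genes Kcnb2 and Kcnd3 at 2.14 and 2.58, and 2.47 and 2.12. Jph4, Bambi, a pseudoreceptor of TGF-beta family signalling, Edaradd and Foxp2 completed the leading 12. Arpp21 and Nr4a1 were not particular to the neuroblast lineage. Arpp21 was at 73.7 and 103 CPM in members and 75.4 and 67.5 CPM in oligodendrocyte precursors. Nr4a1 was at 169 and 169 CPM in members and 443 and 388 CPM in those precursors. Meg3 was also found in those precursors, at 575 and 464 CPM, against 3620 and 4260 CPM in members.

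Ion channels and transmitter receptors were the list with the most members on the higher side. Of 15 measured, 6 were at least 2-fold higher in both libraries and 0 lower, with list medians of 1.01 and 0.81 against 0.01 and 0.02 over all genes. The AMPA receptor subunit gene Gria2 was at 270 and 350 CPM in Ccnd2-dominant cells and 887 and 718 CPM in members, and the NMDA subunit gene Grin2b at 22.9 and 23.2 against 78.3 and 63.4 CPM. Of 18 synaptic and maturation genes, 2 were 2-fold higher in both libraries: Syt1, the calcium sensor of vesicle release, with log2 ratios of 1.90 and 2.40, and Camk2b with 1.63 and 1.54.

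Among 22 bulb subtype transcription factors, 4 were 2-fold higher in both libraries, namely Tshz1, Pbx3, Foxp2 and Six3, and 1, Gsx2, was lower. Tshz1, a zinc finger factor needed for bulb interneurons, went from 141 to 501 CPM contralateral and from 143 to 604 CPM ipsilateral. The Six3 value rests mainly on 4 cells. Pax6, a factor of dopaminergic periglomerular fate, was measured at 227 and 321 CPM in Ccnd2-dominant cells and 192 and 194 CPM in members. Of 16 slit, semaphorin, ephrin and netrin genes, 4 were 2-fold higher and 0 lower, among them the slit receptor gene Robo2 with log2 ratios of 1.06 and 1.26 and the plexin gene Plxna4 with 1.11 and 1.58.

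Of the imprinted genes, 8 of 11 measured had log2 ratios above 0 in both libraries and 2 below. The list medians were 0.33 contralateral and 0.33 ipsilateral, against 0.01 and 0.02 over all genes. Meg3, on which the cells were chosen, was at 540 against 3620 CPM contralateral and 487 against 4260 CPM ipsilateral, and it was the 1 gene of the list past 2-fold. Mirg, a host transcript of microRNAs from the same cluster, had 14 and 24 UMIs in members, and Dlk1, the protein-coding gene expressed from the other parental chromosome, had 0.

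On the lower side, 11 of 17 measured S phase genes were at least 2-fold lower in both libraries and 17 of 17 were below 0 in both, with medians of -1.50 and -1.53. The limit of under 3 UMIs of Mki67 and Top2a applied to both groups alike, so only Meg3 against Ccnd2 separates them. Ccnd2 is itself a cyclin gene, so this list remains a description of that split. The replication helicase genes Mcm2 and Mcm3 had 1 and 0 UMIs contralateral and 1 and 4 ipsilateral over the members. Mdk, the growth factor midkine, was at 503 and 571 CPM in Ccnd2-dominant cells and 39.1 and 65.3 CPM in members, and the intermediate filament gene Vim at 409 and 518 against 46.0 and 69.0 CPM. Ezr and Insm1 stood on the same side, with log2 ratios of -2.98 and -2.69, and -1.22 and -1.39. The migration machinery did not follow these genes: of 23 cytoskeleton and adhesion genes, 0 were 2-fold higher and 0 lower in both libraries, with medians of 0.01 and 0.03. Dcx was at 786 and 705 CPM in Ccnd2-dominant cells and 982 and 980 CPM in members.

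Between the sides, few genes of the members reached 2-fold. Of 5801 genes with at least 50 UMIs over both libraries, 49 (0.845%) were at least 2-fold higher ipsilateral and 6 (0.103%) at least 2-fold lower, 0.948% either way. The median log2 ratio over these genes was 0.04, with 56.0% of genes above 0. For 24 of the 49 higher genes, 1 cell held more than 25% of the ipsilateral UMIs, and this held for 0 of the 6 lower genes. With the 3 astroglial and 1 endothelial cells left out, 26 of 5681 genes were higher and 7 lower. The count of higher genes thus depended on 4 cells that carried markers of other cell types.

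Sfrp2 led the genes spread over many cells. It had 29 UMIs in 18 contralateral cells (33.4 CPM) and 103 UMIs in 42 ipsilateral cells (96.1 CPM), a log2 ratio of 1.40 (0.86 to 1.95), and 1.44 without the astroglial and endothelial cells. Camk4, a calcium and calmodulin-dependent kinase of neuronal nuclei, had 14 UMIs in 11 contralateral and 53 UMIs in 41 ipsilateral cells, a log2 ratio of 1.37 (0.66 to 2.07). B3glct, an O-fucose glucosyltransferase gene, had 13 UMIs in 11 cells and 50 UMIs in 26 cells, also at 1.37. Unc5c, a netrin receptor gene, and Ntng1, which encodes netrin-G1, had log2 ratios of 1.23 and 1.26. Kcnip1, an accessory subunit of A-type potassium channels, was at 1.23, and Fgf12, whose protein binds sodium channels, at 1.29. Plk4, the kinase of centriole duplication, was at 1.29, with 21.4% of its ipsilateral UMIs in 1 cell. Ier5l, Zbtb4, Srek1ip1 and Atp13a3 completed the leading 12, between 1.22 and 1.32, and Ier5l was at 0.99 without the astroglial and endothelial cells. Apart from Sfrp2, these genes had 39 to 62 ipsilateral UMIs each, and the intervals of their ratios are wide.

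On the lower side, Pcgf6, a Polycomb group gene, had 35 UMIs in 29 contralateral cells (40.3 CPM) and 15 UMIs in 14 ipsilateral cells (14.0 CPM), a log2 ratio of -1.25 (-1.96 to -0.53). The transporter gene Slc38a10 was at -1.13 (-1.77 to -0.49) and Rab28, a small GTPase, at -1.06 (-1.75 to -0.36). Sall3, a zinc finger factor of bulb interneurons, was at 70.2 and 35.4 CPM, a log2 ratio of -0.90 (-1.44 to -0.35), and Plxna3, a semaphorin co-receptor gene, at 44.9 and 21.5 CPM (-0.92). Rem2, a GTPase of neuronal calcium channels, was at 94.4 and 49.4 CPM (-0.87). Hist1h2bc, at 273 and 140 CPM, belongs to a family of near-identical histone genes whose reads cannot be assigned with certainty. Nutf2, Klf12, Nufip1, Impact and Pfkp lay between -0.99 and -0.86.

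**Figure D3:**
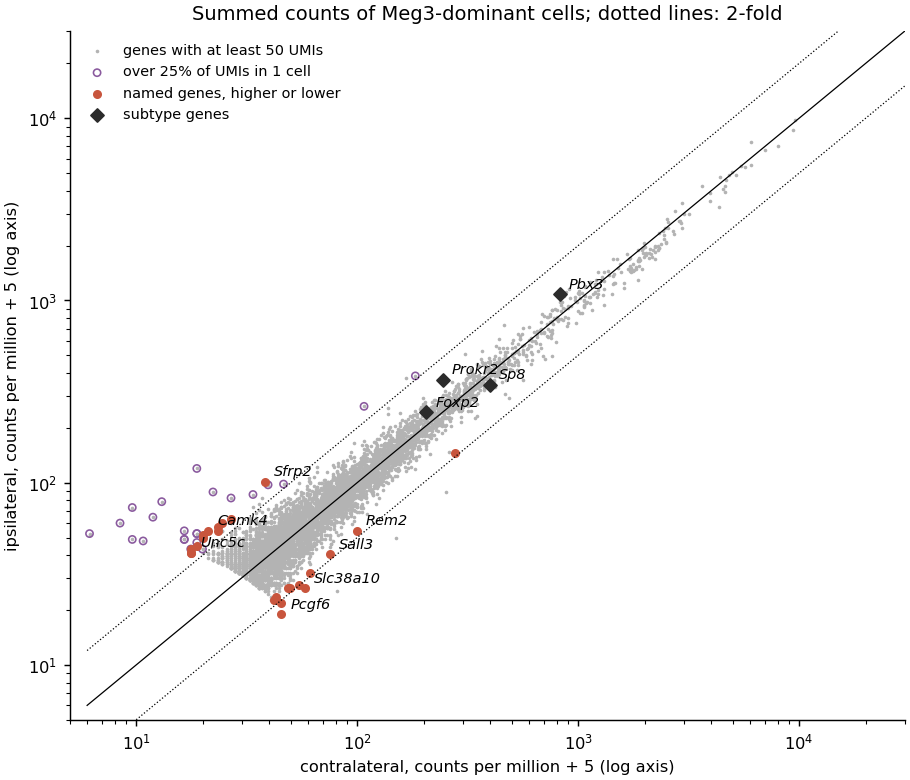
Each point is a gene with at least 50 UMIs over both libraries, placed by its summed CPM plus 5 in contralateral (horizontal) and ipsilateral (vertical) members on log axes, with dotted lines at 2-fold. Filled red points are the 12 leading genes each way, open circles have over 25% of their UMIs in 1 cell of the library where they are higher, and the diamonds of the 4 subtype genes lie inside the dotted lines.

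The gene lists of the neuroblast programme had medians near that of all genes, which was 0.05 among the 8415 genes with at least 20 UMIs, the minimum used for lists. At that minimum 124 genes (1.47%) were 2-fold higher and 23 (0.273%) lower. Of 21 bulb subtype factors 9 were above and 12 below 0 (median -0.02), with Six3 alone past 2-fold. The 23 migration genes had a median of 0.01 and 0 past 2-fold. Within them St8sia2, which makes polysialic acid on NCAM, was at 209 and 139 CPM, a log2 ratio of -0.58 (-0.88 to -0.27). The 16 neuroblast transcription factors had a median of 0.04, the 17 synaptic genes 0.06 and the 16 ion channel and receptor genes -0.02, each with 0 past 2-fold. Dlx6 was at 61.0 and 117 CPM, a log2 ratio of 0.88 (0.44 to 1.33), but it overlaps Dlx6os1 on the opposite strand, and how the counting treated strand is not given in the sources used here. Of 15 guidance genes 5 were above 0 and 10 below (median -0.09), with Unc5c past 2-fold.

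Of 16 measured immediate early genes, 15 had a ratio above 0, against 56.3% of all genes at this minimum, with 0 past 2-fold and a median of 0.22. The median was 0.003 when members needed Meg3 above 2 times Ccnd2, 0.07 with a Dlx sum of at least 6, and 0.11 without the 1 member called a doublet. Junb was at 458 and 729 CPM, a log2 ratio of 0.67 (0.49 to 0.84), and Btg2 at 432 and 609 CPM (0.49). Egr1 was at 1371 and 1374 CPM, and Nr4a1 and Fosb also differed by less than 0.01 in log2 ratio. Without the astroglial and endothelial cells 12 of 15 were above 0 and the median was 0.07, while Junb was at 0.56. The list of neural stem and astroglial genes had a median of 0.44 over 15 measured genes with them and 0.03 over 6 without them. The astrocyte list had 7 of 7 genes above 0 (median 0.84) with all members, and 3 of 3 (median 0.35) without these cells. Of the markers of oligodendrocyte precursors, 4 of 5 measured genes were above 0 (median 0.55), summing to 267 CPM contralateral and 400 CPM ipsilateral, and 4 of 4 (median 0.68) without the astroglial and endothelial cells. Vcan, a matrix proteoglycan gene, made up most of this sum, at 195 and 286 CPM, and Olig1 had 20 and 51 UMIs. The precursor genes of the membership rule had few UMIs: without the astroglial and endothelial cells, Pdgfra had 2 and 0, Cspg4 0 and 6, and C1ql1 9 and 10. Committed oligodendrocyte markers had 4 of 5 above 0 (median 0.38) and mature ones 8 of 10 (median 0.19). The part of these markers in the differences between sides was not tested. The endothelial list had 6 of 6 above 0 (median 2.22), and 0 measured genes without them. Of the interferon list, 1 gene of 20 had enough UMIs for a ratio, so no interferon list could be described at this depth.

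**Figure D4:**
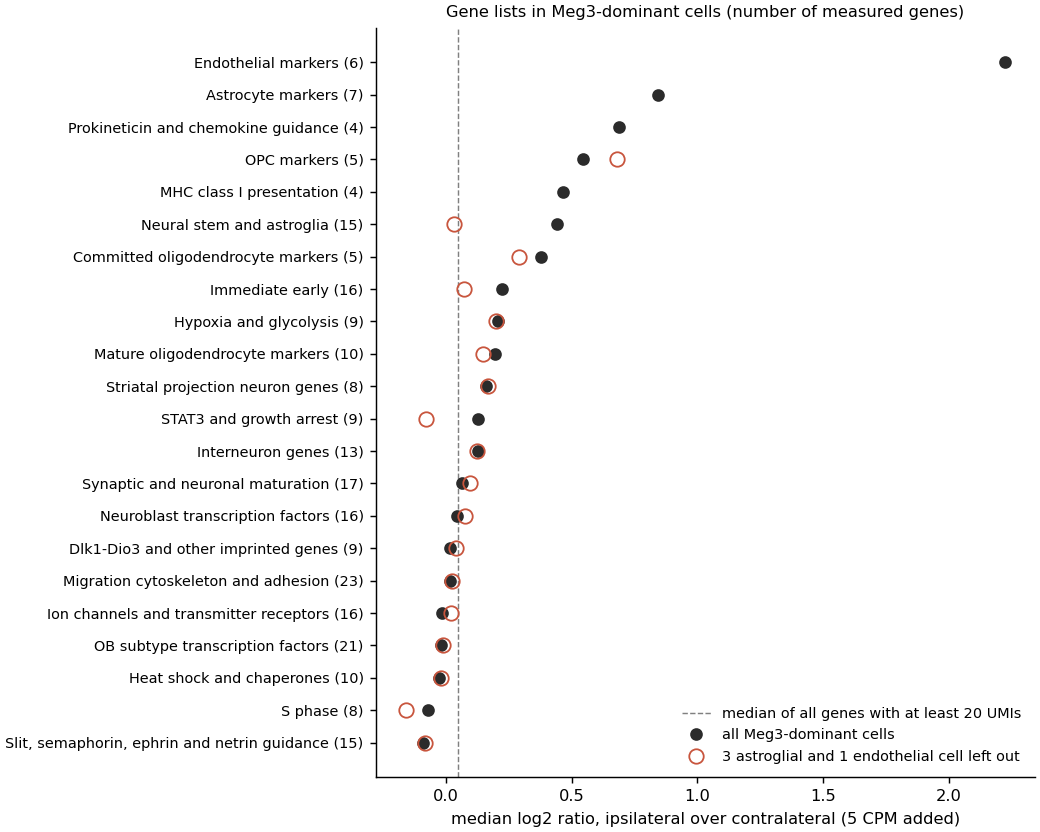
Filled points are the median log2 ratio, ipsilateral over contralateral, of each gene list with at least 4 measured genes, and open circles the same without 3 astroglial cells and 1 endothelial cell where at least 4 genes remained. The dashed line is the median of all genes with at least 20 UMIs, and the neuroblast, migration, synaptic and ion channel lists lie beside it.

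The subtype genes were widely co-detected. A UMI of each of the 4 was found in 27 contralateral and 37 ipsilateral cells, and a UMI of none of them in 5 and 8. Of those with none, 1 contralateral and 4 ipsilateral cells were Lhx6 or Nkx2-1 cells and 1 and 2 were astroglial, and 2 and 2 remained without the 18 exceptional cells. Pbx3 and Foxp2 went together more often than the product of their shares: 55 contralateral cells had both against a product of 50.5, and 67 ipsilateral cells against 56.6. Put another way, Foxp2 had a UMI in 52.4% of contralateral cells with Pbx3 and 30.8% of those without, and in 58.8% and 11.1% ipsilateral. After thinning these were 45.9% against 22.6%, and 52.1% against 6.25%. Prokr2 and Pbx3 were together in 73 and 91 cells against products of 66.5 and 83.3. Pbx3 and Sp8 were together in 71 and 79 cells against 71.3 and 77.6. Without the 18 exceptional cells, many of which lack several of the genes, Pbx3 and Foxp2 were together in 55 cells against 51.5 contralateral and 65 against 58.1 ipsilateral. Prokr2 and Pbx3 were then together in 73 against 68.1 and 89 against 84.5, and Pbx3 and Sp8 in 71 against 73.9 and 78 against 81.1, below the product in both libraries. Cells with and without Pbx3 had median depths of 6332 and 6837 UMIs contralateral and 7087 and 7602 ipsilateral.

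Genes that varied with Pbx3 were described in the 124 contralateral and 130 ipsilateral cells that remain without the 18 exceptional cells. Cells without a Pbx3 UMI then numbered 21 and 19, so low values rest on few UMIs. Of 5424 other genes, 66 (1.22%) were at least 2-fold higher with Pbx3 in both libraries and 8 (0.147%) lower. With every member included these counts were 45 (0.776%) and 47 (0.81%) of 5800, and the genes lower with Pbx3 were then led by those of the exceptional cells. Foxp2 was at 247 CPM with and 56.6 CPM without Pbx3 contralateral, and at 306 and 41.2 CPM ipsilateral. Dusp4, a MAP kinase phosphatase, was at 109 and 14.2 CPM and at 181 and 13.7 CPM. Syt6 was at 73.5 and 7.08 CPM and at 115 and 13.7 CPM, and Meis1, a homeodomain partner of PBX proteins, at 61.5 and 7.08 CPM and at 105 and 20.6 CPM. Id2, an inhibitor of basic helix-loop-helix factors, was at 67.5 and 65.7 CPM with Pbx3 and had 0 UMIs in the cells without it on either side. Lrrtm3, B3glct, Pcp4, Unc5c and Dpysl4 were the other leading genes on this side.

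In the opposite direction, Zic1 and Zic2, zinc finger factors of septal and medial bulb interneuron lineages, were higher without Pbx3. Zic1 was at 28.5 CPM with and 99.1 CPM without Pbx3 contralateral, and at 13.6 and 179 CPM ipsilateral. Zic2 was at 33.0 and 84.9 CPM, and at 18.6 and 117 CPM. Rlbp1, a retinoid-binding protein gene, was at 46.5 and 127 CPM, and at 37.2 and 110 CPM. Sp8 was also lower with Pbx3, at 385 against 595 CPM and 346 against 577 CPM, without reaching 2-fold.

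The split by Sp8 had the other partners. Of 5424 genes 20 (0.369%) were at least 2-fold higher and 3 (0.0553%) lower in cells with a Sp8 UMI, against 19 (0.328%) and 35 (0.603%) of 5800 with every member included. Cells with Sp8 were deeper, with medians of 6559 against 5834 UMIs contralateral and 7450 against 6128 ipsilateral among these cells, and the part of depth in this split was not tested. Zic2 was at 55.9 CPM with and 0 CPM without Sp8 contralateral, and at 41.5 and 4.85 CPM ipsilateral. Pax6 was at 255 and 55.2 CPM, and at 257 and 63.0 CPM. Setd7, Nkd1, a negative regulator of Wnt signalling, and Sox9 stood on the same side. The 3 lower genes were Adgrl3, a latrophilin adhesion receptor gene, Zfhx3 and Spata7, and Adgrl3 was at 26.3 against 75.2 CPM and 24.1 against 67.9 CPM. Pcp4, which did not reach 2-fold in both libraries, was at 36.1 against 75.2 CPM and 40.2 against 136 CPM. Foxp2 was at 187 against 296 CPM and 190 against 538 CPM. Zic2 was thus higher with Sp8 and lower with Pbx3 in both libraries, and Foxp2 and Pcp4 the reverse.

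The splits by Prokr2 and Foxp2 were more even than that by Pbx3, with 42 and 31 cells without Prokr2 and 62 and 62 without Foxp2. Cells without Sp8 numbered 35 and 35. The splits thus differed in size, and counts of genes are not compared between them. With a Prokr2 UMI, 16 genes (0.295%) were 2-fold higher and 5 (0.0922%) lower, against 17 (0.293%) and 29 (0.5%) with every member. The higher genes were led by B3glct, Gas1, a hedgehog co-receptor, Rangap1, Sfrp2 and Lrrtm3. Sfrp2 was at 46.2 and 15.0 CPM contralateral and 131 and 14.3 CPM ipsilateral with and without Prokr2. Igfbp5 and Vim were lower with Prokr2: Vim was at 31.4 against 71.2 CPM and 20.2 against 110 CPM. With a Foxp2 UMI, 1 gene (0.0184%) was higher and 3 (0.0553%) lower, against 3 (0.0517%) and 20 (0.345%) with every member. The higher one was Plk2, an activity-induced kinase, at 70.5 against 26.8 CPM and 86.1 against 38.2 CPM. Wnt5a, a Wnt ligand, was at 90.7 against 21.9 CPM and 91.8 against 45.4 CPM.

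**Figure D5:**
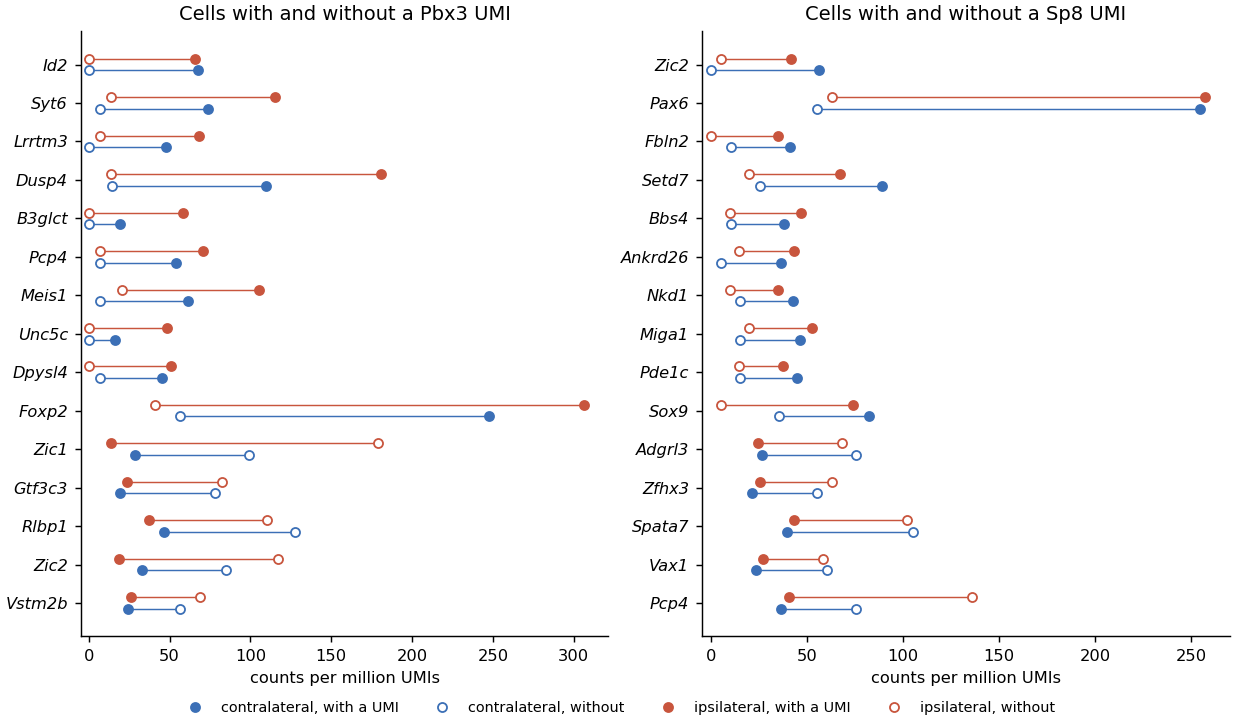
Filled points are summed CPM in cells with, and open points in cells without, a UMI of Pbx3 (left) or Sp8 (right), for the 10 leading genes higher with it and the 5 lower, in both libraries and without the 18 exceptional cells. Foxp2 is right of its open points in the Pbx3 panel, and Zic2 changes sides between the panels.

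The 10 cells with Lhx6 or Nkx2-1 lacked most of the subtype genes in both libraries. They held 41 contralateral and 74 ipsilateral Lhx6 UMIs and 22 and 45 Nkx2-1 UMIs, and the other members held 0 of either. Lhx6 had 6 to 13 UMIs per cell contralateral and 3 to 19 ipsilateral. Meis2, a homeodomain factor of lateral ganglionic eminence derivatives, had 0 UMIs in these 10 cells, and a UMI in 98.4% and 99.3% of the other members. Sp8 and Pax6 also had 0 UMIs in them, Pbx3 had 1 UMI over all 10, and Prokr2 had 2 contralateral and 3 ipsilateral UMIs. Npy, the neuropeptide Y gene, had 14 UMIs on each side, in 2 and 3 of these cells, and 0 elsewhere among the members. Sst, the somatostatin gene, had 24 UMIs in 1 of the ipsilateral cells. Sox11 was at 5641 and 5633 CPM in these cells, against 3865 and 3379 CPM in the others. Epha5, an ephrin receptor gene, was at 603 and 672 CPM against 44.3 and 27.5 CPM, and Ackr3, the scavenging receptor of the chemokine CXCL12, at 241 and 436 against 9.57 and 13.8 CPM. They were 4 of 131 and 6 of 141 members, and no side is compared at these numbers.

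The 4 cells with at least 2 Six3 UMIs, astroglial cells aside, also stood apart from the rest. They had 22 and 2 Six3 UMIs contralateral and 27 and 52 ipsilateral, against 1 and 0 UMIs over the remaining 128 and 136 members without astroglial and endothelial cells. Six3, a homeodomain factor needed for one class of striatal projection neurons, went with Bcl11b, a factor of striatal projection neurons, which had 15 and 18 UMIs contralateral and 7 and 40 ipsilateral. Bcl11b summed to 1486 and 1767 CPM in them, against 197 and 238 CPM in the rest. They had 0 Sp8 UMIs and 1, 0, 1 and 1 Pbx3 UMIs, but kept Meis2, at 3511 and 4023 CPM. Dcx was present in each of the 4, with 9 to 14 UMIs. Genes of mature projection neurons were close to absent: the 4 cells together had 0 UMIs of Drd1, Drd2, Penk and Ppp1r1b and 2 of Adora2a. Of the 18 ipsilateral Calb1 UMIs, 17 were in 1 of these cells. The ipsilateral excess of Six3 over all members, a log2 ratio of 1.35 (0.78 to 1.94), therefore rests on few cells: these held 24 of 25 contralateral and 79 of 87 ipsilateral UMIs.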

How the data were processed

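Per the submitters' processing notes, the authors used Cell Ranger 3.1.0 and mm10. The deposited values are whole UMI counts per gene and cell barcode, and 31053 genes were read. The strandedness of the counting is not given in the sources used here. Counts of 1 library a side were summed over members and divided by the members' total. There is 1 library per side, so no test was made, and the intervals (exact Poisson or Clopper-Pearson, and Newcombe for differences) cover counting error only. Gene ratios use CPM plus 5 and need 50 UMIs over both libraries, or 20 for lists. A fixed size of 2-fold stands in for a test. The interval of a ratio combines the Poisson intervals of both sums. The members and lists were chosen with earlier results of these data known, and the small sets of exceptional cells after their values were seen.

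Shares with a UMI were also computed after thinning each cell to 4306 UMIs, which left out 15 contralateral and 13 ipsilateral members. Scrublet, run on kept barcodes at an expected rate of 0.05, called 14 contralateral (0.73%) and 101 ipsilateral (4.03%) doublets. Of these 0 and 1 were members, and members called doublets were kept except in an alternative. Leading genes are the 12 highest and 12 lowest ratios at 20 CPM or more, without mitochondrial, ribosomal, predicted or clone-named genes and genes with over 25% of UMIs in 1 cell. For stages and splits, genes were ranked by the smaller ratio of both libraries, 12 each way for stages and 10 higher and 5 lower for splits. From each list the named genes are among the 6 with the largest ratios, or reach 20 CPM in the subtype, guidance, projection neuron and interneuron lists. Other genes, such as Egr1, Dcx, the cells' defining markers and the genes described in small sets, were added as controls or after their values were seen. Not every gene the rule names is reported here. The ratio and its interval were tested on simulated Poisson counts. That is the law the interval assumes, so spread between cells or animals was not part of that test. Tools were Python 3.11.15 with scanpy 1.11.5, numpy 2.4.6, scipy 1.17.1 and pandas 2.3.3, and R 4.3.3 with edgeR 4.0.16 for scaling factors. Alternatives were other added CPM values, scalings, barcode filters, membership limits and minimum UMIs, and leaving out sets of cells.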

Additional observations from a re-analysis of the deposited data

Results flagged for a closer look

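Of the genes whose step from Ccnd2-dominant to Meg3-dominant cells went in opposite directions in the 2 libraries, 5 were flagged, each lower contralateral and higher ipsilateral. They were not the only such genes, and the number over all genes was not counted. Itm2a had steps of -0.31 contralateral and 3.01 ipsilateral, and Cldn5 of -0.14 and 3.14. Hist1h2bc went the other way, with 0.35 and -0.54. Among the 5 flagged genes, the log2 ratio of the step was higher ipsilateral than contralateral by 4.82 for Id3, an inhibitor of basic helix-loop-helix factors. It was higher by 4.40 for Cxcl12, a chemokine gene, and by 4.10 for Flt1, a receptor gene of vascular endothelium. For Pltp, a phospholipid transfer protein gene, it was higher by 3.54, and for Calb1, a calcium-binding protein gene, by 3.08. These differences were not tested, since each side is 1 library. For each of the 5 genes, the ipsilateral cell richest in it held a large part of its ipsilateral UMIs. This was 39.1% for Id3, 94.1% for Cxcl12, 97.5% for Flt1, 91.3% for Pltp and 94.4% for Calb1. These were not all the same cell: the Flt1 UMIs were in the cell with endothelial markers, and 17 of 18 Calb1 UMIs in a Six3 cell. Without the astroglial and endothelial cells, Flt1 had 1 contralateral and 1 ipsilateral UMI, Cxcl12 had 1 and 3, and Id3 had 2 and 4.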

How the results depend on the processing

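No paired analysis was possible because each side is 1 library and the results come from no test. Over 15 alternatives the log2 ratio of Prokr2 lay between 0.53 and 0.69, that of Foxp2 between 0.15 and 0.30 and that of Sp8 between -0.37 and -0.12. That of Pbx3 lay between 0.33 and 0.53, the highest value, 0.53, being that with Meg3 above 2 times Ccnd2 (97 and 111 cells). The difference in share of kept barcodes lay between -1.30 and -0.64 points. The count of genes at least 2-fold higher ipsilateral, 49, was 20 with 20 CPM added, 32 without the 1 member called a doublet, 26 with a Dlx sum of at least 6, 30 with Meg3 above 2 times Ccnd2, 124 with a minimum of 20 UMIs and 3 with a minimum of 200. It was 26 with the top cell of each gene left out and 26 without astroglial and endothelial cells, the latter chosen after seeing the data. The count of lower genes, 6, was 10 with 1 CPM added, 3 with 20 CPM added, 10 with each cell weighted equally, 23 with a minimum of 20 UMIs and 1 with a minimum of 200. No subtype ratio changed sign. TMM scaling moved the median over all genes from 0.04 to -0.01.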
